A study of Mus musculus with 12 samples.

Results

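The 10 genes H19, Meg3, Rian, Peg3, Plagl1, Ndn, Mest, Dlk1, Grb10 and Cdkn1c are imprinted genes that act in a shared network of fetal and postnatal growth. They were taken by symbol from a table of 29454 genes measured in the hippocampus of mouse pups. The rule did not use their values, but earlier results of these data were known when the genes were chosen. Where a symbol is repeated, the row with the highest mean FPKM counts. All 10 passed the filter on low values described below.

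Total RNA depleted of ribosomal RNA was sequenced in 12 libraries of 3 genotypes. WT (3 libraries) had neither transgene. CAMK (3 libraries) had CaMKIIα-tTA, a driver in which the CaMKIIα promoter, active in forebrain excitatory neurons, makes the tetracycline-controlled transactivator. CX3CL1-ct (6 libraries) stands for Tg-CX3CL1-ct/tTA pups, which have the driver together with a transgene encoding the C-terminus of CX3CL1, a membrane-bound neuronal chemokine. The study asked how back-signaling from CX3CL1 bears on neurogenesis. The pups were littermates from transgenic mice backcrossed to C57BL/6J for 6 generations, without doxycycline or another agent in the labels. Their age is postnatal day 4 in the sample labels and postnatal day 0 in the series' design text. No group carried the CX3CL1-ct transgene without the driver, and the labels do not give which parent passed on a transgene. Nor do they say whether libraries came from separate animals. The p-values therefore describe only the spread between these samples, which may be technical.

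Imprinted genes are read mainly from the allele of 1 parent, because methylation laid down in the egg or sperm at a control region marks 1 parental copy. Many paternally expressed ones favor growth and many maternally expressed ones restrain it. Most of the 10 genes fall in expression after birth in peripheral organs, while several remain high in neurons. FPKM (fragments per kilobase, scaled to library size) adds both alleles, so the values give the level of each gene and not its allele. In whole tissue, fewer cells of a type and less RNA per cell cannot be told apart.

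The hippocampal identity of the libraries was checked with 12 markers of hippocampal neurons, all above 1 FPKM in every library. Their summed level was 273 to 467 FPKM in WT, 307 to 405 in CAMK and 145.5 to 462 in CX3CL1-ct. CX3CL1-ct 5 held the lowest sum and stood apart: the other 5 libraries of its group had at least 368 FPKM. The same library was among the highest for markers of the striatum, the thalamus and the hypothalamus, and it is marked in the results that rest on it. CX3CL1-ct 1, 2 and 3 resembled one another more than most pairs of a group, with a standard deviation of the log2 difference of 0.399 to 0.421, against 0.419 to 0.577 for other pairs. Results were therefore also computed with these 3 averaged as 1 library. The labels give no sex, and the libraries differed in sex-linked RNA. Xist, made by the inactive X of females, was at 6.38, 113 and 74.1 FPKM in WT 1 to 3, at 0.169, 107 and 65.5 in CAMK 1 to 3, at 96.3 in CX3CL1-ct 5 and at no more than 8.49 in the other 5. The 4 Y-linked genes Ddx3y, Uty, Kdm5d and Eif2s3y summed to 46.2, 3.48 and 24.4 FPKM in WT, 63.4, 3.23 and 27.7 in CAMK, 7.14 in CX3CL1-ct 5 and at least 57.1 in its other 5 libraries. WT 3 and CAMK 3 thus held both kinds in quantity, and 5 of 6 CX3CL1-ct libraries had little Xist. Cx3cl1 itself, whose C-terminal part the transgene encodes, was at 40.6 ± 1.89 FPKM in WT (SD, n = 3), 38.2 ± 3.46 in CAMK (n = 3) and 38.6 ± 5.49 in CX3CL1-ct (n = 6). The labels do not say which sequence of the transgene would count toward Cx3cl1, so this level did not check the genotype.

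Per length of transcript, the non-coding RNAs of the Dlk1-Dio3 cluster on chromosome 12 were the most abundant of the 10. Rian had a mean of 831 FPKM over the 12 libraries and Meg3 of 372. Ndn followed at 96.7, Mest at 62.8, Peg3 at 42.7, H19 at 23.5, Grb10 at 15.9, Cdkn1c at 10.6 and Plagl1 at 8.22 FPKM, and Dlk1 was last at 1.34. The lowest library of Rian was above the highest of Meg3, and the same held for Meg3 over Ndn and for Plagl1 over Dlk1. Every other neighbouring pair had overlapping ranges. Within libraries, Ndn exceeded Mest and Mest exceeded Peg3 in 12 of 12, Peg3 exceeded H19 in 11, and H19 exceeded Grb10 in 9.

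**Figure D1:**
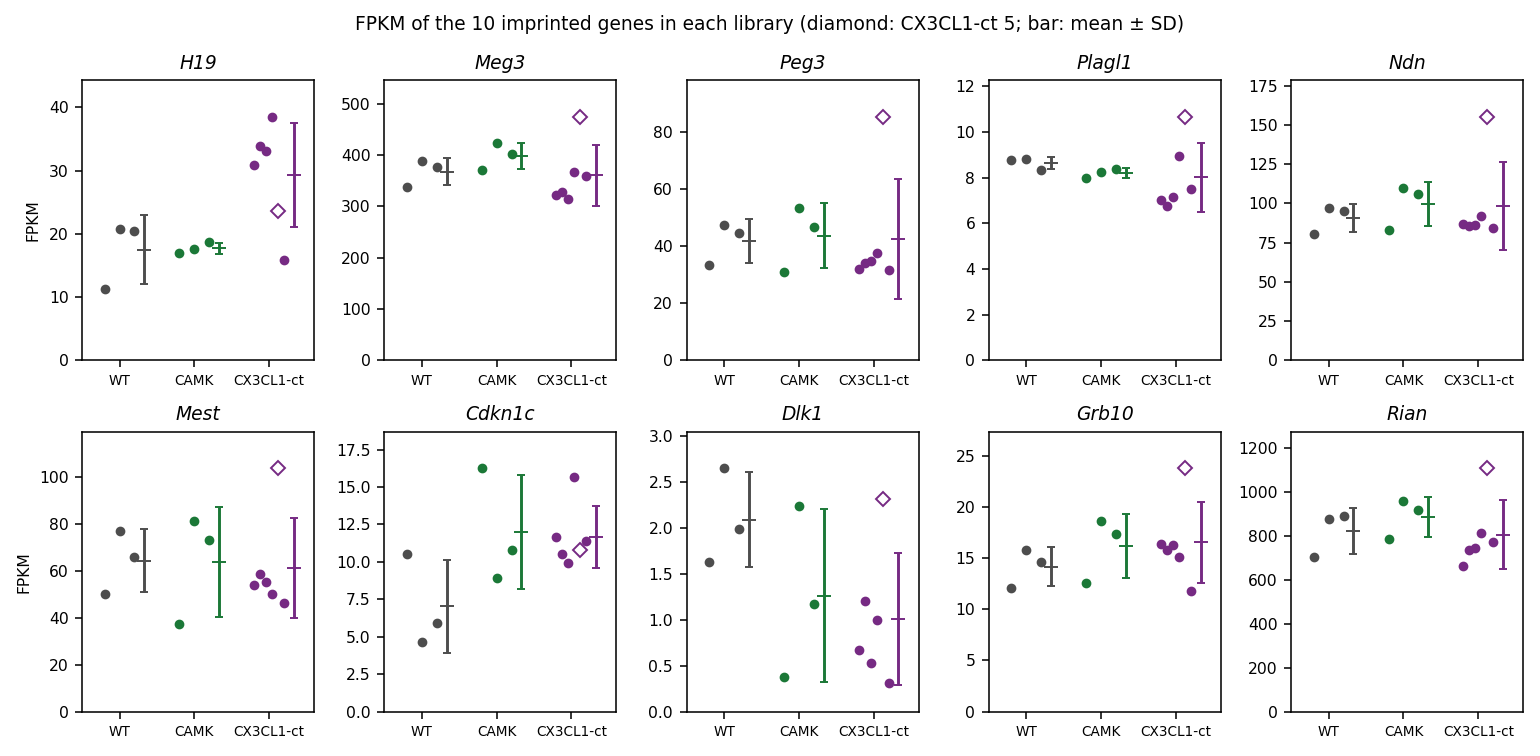
FPKM of each of the 10 genes (vertical axis, linear, from 0) in every library of WT, CAMK and CX3CL1-ct; points are libraries, the open diamond is CX3CL1-ct 5, and the bar beside each group is the mean ± SD. CX3CL1-ct 5 is the highest of the 6 CX3CL1-ct libraries for 8 of the 10 genes, and H19 is at 30.9 to 38.5 FPKM in CX3CL1-ct 1 to 4.

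No gene of the 10 passed the threshold of an adjusted p of 0.05 in any comparison (limma on log2(FPKM + 1), Benjamini-Hochberg over 16503 genes). For CX3CL1-ct against CAMK, 0 of 10 were called, beside 0.0606% of all genes tested, and 1 had an unadjusted p under 0.05 (H19). For CX3CL1-ct against WT, 0 of 10 were called, beside 0.454% of all genes, and 3 had an unadjusted p under 0.05 (Cdkn1c, H19 and Dlk1). For CAMK against WT, 0 of 10 were called, beside 0.358% of all genes, and 1 had an unadjusted p under 0.05 (Cdkn1c). Over all genes, 1051, 2029 and 2044 of 16503 had an unadjusted p under 0.05 in these comparisons. With a call share this low over the whole table, 0 of 10 is no result about the 10 genes.

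The groups overlapped for every gene in every comparison: 0 of 10 had groups that do not overlap for CX3CL1-ct against CAMK, beside 3.30% of all genes, 0 for CX3CL1-ct against WT, beside 6.04%, and 0 for CAMK against WT, beside 18.0%. The difference was positive for 2, 4 and 7 of the 10 genes in that order, beside 10432, 10350 and 8340 of the 16503 genes tested. The median log2 difference of the 10 genes was -0.04, -0.04 and 0.09, where the median over all genes tested was 0.04, 0.04 and 0.00. The first 2 comparisons share the CX3CL1-ct libraries, and the last 2 share the WT libraries, so they are not independent.

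**Figure D2:**
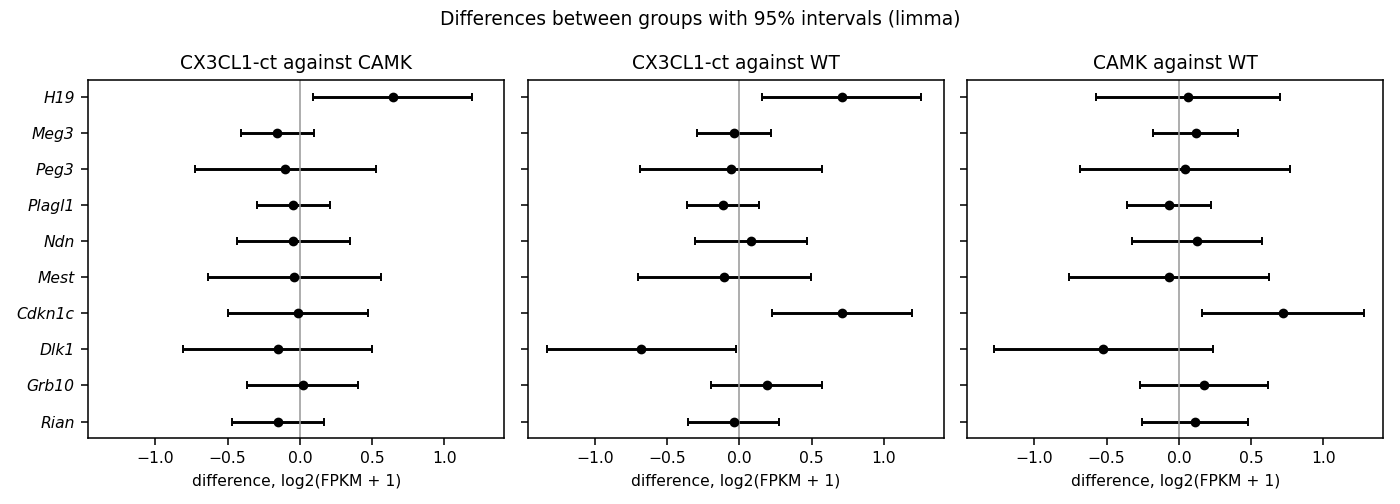
Difference in log2(FPKM + 1) between groups (horizontal axis) for each of the 10 genes in the 3 comparisons; points are limma estimates and bars their 95% intervals. H19 has an interval above 0 in both comparisons of CX3CL1-ct, Cdkn1c in both comparisons against WT, and the interval of Dlk1 lies below 0 for CX3CL1-ct against WT; none of these passed after adjustment.

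H19 (ENSMUSG00000000031.15, chromosome 7, 142575529 to 142578143, minus strand, mm10) is a maternally expressed non-coding RNA beside Igf2, with which it shares an imprinting control region and enhancers. One of its exons holds the hairpin of miR-675, through which H19 is known to restrain growth in the placenta. The mature sequences (RefSeq, GRCm38.p6, chr7:142577112-142577133 for the 5p arm, minus strand) are shown because they are the growth-restraining product of the gene, with the seed, bases 2 to 8, in capitals.
mmu-miR-675-5p: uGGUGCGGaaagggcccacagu
mmu-miR-675-3p: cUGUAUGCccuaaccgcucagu
The table has no entry for this hairpin, so the values below are of the H19 transcript and not of miR-675.

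H19 was at 11.2, 20.8 and 20.4 FPKM in WT 1 to 3 and at 17.0, 17.5 and 18.7 in CAMK 1 to 3. In CX3CL1-ct 1 to 6 it was at 30.9, 33.9, 33.1, 38.5, 23.7 and 15.8 FPKM. CX3CL1-ct 1 to 5 lay above every other library and CX3CL1-ct 6 below all 3 CAMK libraries, so the groups overlapped through that library. The log2 difference of CX3CL1-ct from CAMK was 0.64 (SE 0.25, 95% interval 0.09 to 1.19, limma adjusted p = 0.734). Against WT it was 0.71 (SE 0.25, interval 0.16 to 1.26, limma adjusted p = 0.284), and without WT 1, the lowest library, 0.43. CAMK and WT differed by 0.07 (limma adjusted p = 0.958).

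Igf2, the paternally expressed growth factor of the same locus, was at 29.5, 17.8 and 24.0 FPKM in WT, at 36.6, 30.3 and 31.6 in CAMK, and at 56.1, 54.0, 54.9, 66.3, 29.8 and 30.9 in CX3CL1-ct 1 to 6. Every CX3CL1-ct library was above every WT library, while CX3CL1-ct 5 was below all 3 CAMK libraries and CX3CL1-ct 6 inside their range. CX3CL1-ct exceeded WT by 0.97 (SE 0.25, interval 0.43 to 1.51), the largest rise of the other imprinted genes in that comparison, with a limma adjusted p of 0.129. Without CX3CL1-ct 5 the difference was 1.09 and passed the test (limma adjusted p = 0.044). It was 0.85 with CX3CL1-ct 1 to 3 averaged (limma adjusted p = 0.427) and 0.78 without WT 2 (0.487), and it passed in 2 of 20 alternatives in all, with adjusted p-values from 0.0050 to 0.487.

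Genes of the meninges, a tissue known for its Igf2, were high in the same libraries. The 13 of 13 meningeal and fibroblast genes in the table, none at 0 in any library, summed to 43.4 to 62.7 FPKM in WT, 71.5 to 78.6 in CAMK and 73.9 to 153 in CX3CL1-ct. In CX3CL1-ct 1 to 4 the sum was 122, 125, 123 and 153 FPKM, and in CX3CL1-ct 5 and 6, the libraries with the least H19 and Igf2 of that group, 73.9 and 74.6. The 15 endothelial and pericyte genes summed to 128 to 160 FPKM in WT, 152 to 176 in CAMK and 142 to 219 in CX3CL1-ct, again with CX3CL1-ct 4 highest. Their part in the levels of H19 and Igf2 was not tested.

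**Figure D3:**
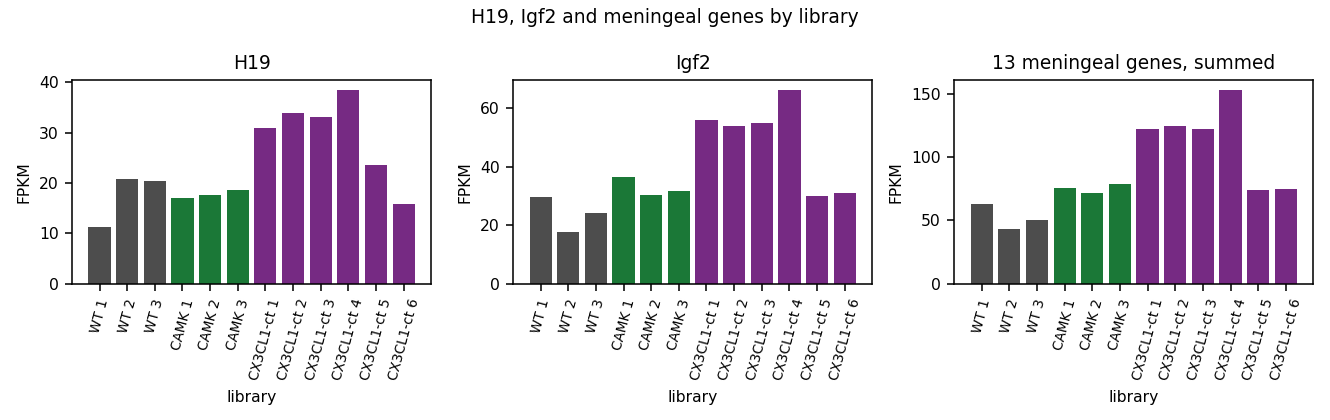
FPKM of H19, of Igf2 and of 13 meningeal genes summed (vertical axes, from 0) in each of the 12 libraries (bars: gray WT, green CAMK, purple CX3CL1-ct). CX3CL1-ct 1 to 4 have the highest bars in all 3 panels, with 30.9 to 38.5 FPKM of H19, 54.0 to 66.3 of Igf2 and 122 to 153 of the summed genes.

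Meg3 (ENSMUSG00000021268.17, chromosome 12, 109541001 to 109571726, plus strand) and Rian (ENSMUSG00000097451.9, chromosome 12, 109603940 to 109661716, plus strand) are maternally expressed non-coding RNAs downstream of Dlk1. The control region of the cluster lies just before Meg3, and it is needed on the maternal copy for the silence of Dlk1 there. Rian hosts small nucleolar RNAs and miRNAs, and 17 small RNA genes of these kinds lie inside it on the same strand. Inside Meg3 lie 4 small RNA genes, annotated as miRNA or miscellaneous RNA and not as small nucleolar RNA. Reads of the opposite-strand Gm26906, which overlaps Meg3, cannot be told apart if strand was not used in counting, but that gene was at no more than 0.158 FPKM.

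Meg3 stood at 338, 388 and 376 FPKM in WT, at 371, 423 and 402 in CAMK, and at 315 (lowest), 343 (median) and 475 (highest) in CX3CL1-ct. The 3 ranges overlapped, and the top library was CX3CL1-ct 5, with 367 FPKM at most in the other 5. CX3CL1-ct differed from CAMK by -0.15 (SE 0.12, interval -0.41 to 0.10, limma adjusted p = 0.875) and from WT by -0.04 (limma adjusted p = 0.926). CAMK differed from WT by 0.12 (limma adjusted p = 0.787).

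Rian was measured at 703, 876 and 889 FPKM in WT, 787, 959 and 917 in CAMK, and 663, 760 and 1110 in CX3CL1-ct (lowest, median and highest). As for Meg3, WT 1 and CAMK 1 were the lowest libraries of their groups and CX3CL1-ct 5 was the highest of all. Differences were -0.15 for CX3CL1-ct against CAMK (interval -0.47 to 0.16, limma adjusted p = 0.910), -0.04 against WT (0.936) and 0.11 for CAMK against WT (0.846). Meg3 and Rian had the closest profiles of any gene searched for Meg3: Pearson's r of log2(FPKM + 1) was 0.952 over the 12 libraries, which share their groups and dissections.

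Peg3 (ENSMUSG00000002265.16, chromosome 7, 6703892 to 6730431, minus strand) encodes a paternally expressed zinc finger protein that acts in p53- and TNF-dependent cell death and in maternal behavior. Like Meg3, it holds the cyclic AMP response element palindrome TGACGTCA in the 250 bases before its RefSeq start, the only 2 of the 8 genes with an entry to do so. These windows are shown because they hold the motif, given in capitals, and in Peg3 also GGGGCCCC, a core of the element bound by PLAGL1. Peg3 and Meg3 share a pattern over libraries described below with Ndn, Mest, Dlk1, Grb10 and Rian. The windows of those other genes hold no TGACGTCA. H19 and Cdkn1c have no entry.
Peg3, chr7:6730420-6730669, minus strand: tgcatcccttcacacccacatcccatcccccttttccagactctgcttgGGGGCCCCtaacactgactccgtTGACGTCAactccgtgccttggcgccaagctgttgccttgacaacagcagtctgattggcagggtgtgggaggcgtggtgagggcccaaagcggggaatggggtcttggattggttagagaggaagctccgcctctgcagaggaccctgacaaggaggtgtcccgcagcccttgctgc
Meg3, chr12:109540746-109540995, plus strand: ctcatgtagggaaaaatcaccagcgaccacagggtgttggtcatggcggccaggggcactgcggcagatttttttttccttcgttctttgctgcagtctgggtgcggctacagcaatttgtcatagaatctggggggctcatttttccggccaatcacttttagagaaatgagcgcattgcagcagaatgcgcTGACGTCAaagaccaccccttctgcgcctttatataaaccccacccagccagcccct
The build is GRCm38.p6. TGACGTCA, searched after these windows had been read and identical on both strands, begins 178 bases before the start in Peg3 and 57 before it in Meg3. It occurs in 508 of 32851 such windows of all genes (1.55%). GGGGCCCC, also its own reverse complement, begins 201 bases before the start in Peg3 and occurs in 292 windows (0.889%). A match is a description of the sequence, not of a bound site.

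Peg3 was at 33.2, 47.6 and 44.7 FPKM in WT, at 30.9, 53.3 and 46.9 in CAMK, and at 31.8, 34.5 and 85.4 in CX3CL1-ct (lowest, median and highest). The top value was CX3CL1-ct 5, and the other 5 libraries of that group reached 37.6 at most. CX3CL1-ct differed from CAMK by -0.10 (SE 0.29, interval -0.73 to 0.53, limma adjusted p = 0.977) and from WT by -0.06 (0.954). Without CX3CL1-ct 5 the difference from WT was -0.27 (limma adjusted p = 0.406). CAMK differed from WT by 0.04 (limma adjusted p = 0.978). The group means of 41.9 ± 7.60 (SD, n = 3), 43.7 ± 11.5 (n = 3) and 42.6 ± 21.1 FPKM (n = 6) were thus close, with a spread that was widest in CX3CL1-ct.

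Plagl1 (ENSMUSG00000019817.18, chromosome 10, 13060504 to 13131694, plus strand), a paternally expressed zinc finger factor known as a regulator of other imprinted genes, varied little in the controls. It was at 8.79, 8.81 and 8.35 FPKM in WT and at 7.97, 8.26 and 8.37 in CAMK. CX3CL1-ct had 6.77, 7.34 and 10.7 FPKM as lowest, median and highest, so 4 of its 6 libraries were below every control and 2 above. The differences were -0.04 from CAMK (interval -0.29 to 0.21, limma adjusted p = 0.975), -0.11 from WT (0.722) and -0.07 for CAMK against WT (0.886).

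Ndn (ENSMUSG00000033585.5, chromosome 7, 62346569 to 62350262, plus strand) encodes necdin, a paternally expressed inhibitor of E2F1 in postmitotic neurons. Its levels were 80.6, 96.8 and 94.8 FPKM in WT, 83.2, 110 and 106 in CAMK, and 84.4, 86.6 and 155 in CX3CL1-ct (lowest, median and highest). CX3CL1-ct 5 was again the top library, and the other 5 lay between 84.4 and 92.0 FPKM. Neither the difference from CAMK (-0.04, interval -0.43 to 0.34, limma adjusted p = 0.982) nor that from WT (0.08, limma adjusted p = 0.887) passed, and CAMK differed from WT by 0.13 (0.864).

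Mest (ENSMUSG00000051855.15, chromosome 6, 30723547 to 30748465, plus strand) encodes a paternally expressed enzyme of the hydrolase fold that marks growing mesoderm and fat, and an intron holds miR-335. That miRNA was not measured here, and both arms are shown as the small RNA product of the locus, from RefSeq with seeds in capitals. The 5p arm lies at chr6:30741314-30741336 on the plus strand (GRCm38.p6).
mmu-miR-335-5p: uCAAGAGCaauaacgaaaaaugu
mmu-miR-335-3p: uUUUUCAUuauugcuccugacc
Mest was at 50.4, 77.2 and 65.8 FPKM in WT, at 37.4, 81.3 and 73.4 in CAMK, and at 46.3, 54.6 and 104 in CX3CL1-ct. CAMK 1 was the lowest of all libraries and CX3CL1-ct 5 the highest. CX3CL1-ct differed from CAMK by -0.04 (interval -0.64 to 0.56, limma adjusted p = 0.992) and from WT by -0.10 (0.912), and CAMK from WT by -0.06 (0.962). Copg2, which overlaps Mest on the other strand, was at 12.0 to 14.8 FPKM, and its reads could be shared with Mest if strand was not used in counting.

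Dlk1 (ENSMUSG00000040856.17, chromosome 12, 109452823 to 109463336, plus strand) encodes a paternally expressed membrane protein of the Notch ligand family that holds back fat cell differentiation and acts in the neurogenic niche. It was low, at 1.63, 2.65 and 1.99 FPKM in WT, 0.371, 2.24 and 1.17 in CAMK, and 0.316, 0.835 and 2.31 in CX3CL1-ct (lowest, median and highest). Of the 6 CX3CL1-ct libraries, 5 were below the lowest WT library, and CX3CL1-ct 5 was within the WT range. CX3CL1-ct was lower than WT by a log2 difference of -0.68 (SE 0.30, interval -1.33 to -0.02, limma adjusted p = 0.392), and by -0.84 (0.151) without CX3CL1-ct 5. With a pseudocount of 0.1 in place of 1 the difference from WT over all libraries was -1.19, since at such levels the pseudocount of 1 hides part of the fold. Its SE rose to 0.56, and it did not pass either (limma adjusted p = 0.418). CX3CL1-ct differed from CAMK by -0.15 (interval -0.81 to 0.50, limma adjusted p = 0.965), and CAMK from WT by -0.52 (SE 0.35, 0.592). Markers of the ependyma, the ciliated lining of the ventricles, shared the order of Dlk1 only in part. The 10 of 10 in the table, none at 0, summed to 37.3 to 42.3 FPKM in WT, 19.1 to 28.3 in CAMK and 21.2 to 34.1 in CX3CL1-ct. CAMK 1 was the lowest of CAMK and CX3CL1-ct 5 the highest of CX3CL1-ct for both. WT 1, lowest in Dlk1, was the highest WT library in ependymal markers. CX3CL1-ct 2, with 1.21 FPKM of Dlk1, had the lowest ependymal sum of its group. CX3CL1-ct 6, lowest in Dlk1, had a sum of 25.9. Their part in the difference was not tested.

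Grb10 (ENSMUSG00000020176.17, chromosome 11, 11930508 to 12038683, minus strand) encodes an adaptor that binds the insulin and IGF1 receptors and dampens their signal. It is expressed from the maternal allele in most tissues and from the paternal allele in neurons. Levels were 12.1, 15.8 and 14.7 FPKM in WT, 12.6, 18.6 and 17.4 in CAMK, and 11.8, 16.1 and 23.8 in CX3CL1-ct (lowest, median and highest). All 3 ranges overlapped, with CX3CL1-ct 6 lowest and CX3CL1-ct 5 highest. The differences were 0.02 from CAMK (interval -0.36 to 0.40, limma adjusted p = 0.992), 0.19 from WT (0.689) and 0.17 for CAMK against WT (0.796).

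Cdkn1c (ENSMUSG00000037664.13, chromosome 7, 143458339 to 143461050, minus strand) encodes p57, a maternally expressed inhibitor of cyclin-dependent kinases that takes progenitors out of the cell cycle. It was at 10.5, 4.67 and 5.88 FPKM in WT 1 to 3, at 16.3, 8.93 and 10.8 in CAMK, and at 9.93, 11.1 and 15.7 in CX3CL1-ct (lowest, median and highest). WT 2 and WT 3 were below every library of the other groups, while WT 1 lay inside their range. CX3CL1-ct exceeded WT by 0.71 (SE 0.22, interval 0.22 to 1.20, limma adjusted p = 0.215) and CAMK exceeded WT by 0.72 (SE 0.26, interval 0.16 to 1.28, limma adjusted p = 0.279). Without WT 1 these were 1.005 (limma adjusted p = 0.074) and 1.02, and without WT 2 they were 0.49 and 0.50. CX3CL1-ct and CAMK differed by -0.01 (interval -0.50 to 0.47, limma adjusted p = 0.998). The opposite-strand Gm44732, which overlaps Cdkn1c, was at up to 2.01 FPKM.

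The same WT 2 and WT 3 libraries held the most striatal RNA of their group. The 12 of 12 striatal markers, none at 0, summed to 62.3, 270 and 201 FPKM in WT 1 to 3, to 73.9 to 84.3 in CAMK and to 62.7 to 199 in CX3CL1-ct. In CX3CL1-ct 5, with 199 FPKM of striatal markers, Cdkn1c was at 10.8, inside its group's range. The meningeal sum was also lowest in WT 2 and WT 3, at 43.4 and 50.2 FPKM. WT 2 and WT 3 were also the WT libraries with the most Xist, as given above. The hippocampal neuron sum had the same order of libraries as Cdkn1c in WT 1 to 3 (467, 273 and 359 FPKM) and in CAMK 1 to 3 (405, 307 and 346). The striatal sums of CAMK 1 to 3 were 73.9, 81.7 and 84.3 FPKM. In CX3CL1-ct 5 the hippocampal sum was the lowest of all, while Cdkn1c was inside its group's range. The part of these cell types and of sex in the lower Cdkn1c of WT was not tested.

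Most of the variation lay within groups for each of these genes but Cdkn1c. Differences between the 3 groups held 50.5% of the sum of squares of log2(FPKM + 1) for Cdkn1c, 48.2% for H19 and 31.8% for Dlk1, but 14.8% or less for the other 7 genes, down to 1.11% for Peg3. The median over all genes tested was 19.7%. The coefficient of variation over the 12 libraries was 60.5% for Dlk1, 36.5% for H19, 36.0% for Peg3, 31.3% for Cdkn1c, 29.4% for Mest, 21.2% for Ndn and 20.5% for Grb10. Rian (15.1%), Plagl1 (12.9%) and Meg3 (12.4%) were near the median of all genes, 13.3%.

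A common order of libraries ran through 7 of the 10 genes. Meg3, Peg3, Ndn, Mest, Dlk1, Grb10 and Rian were each lowest in WT 1 within WT, lowest in CAMK 1 within CAMK and highest in CX3CL1-ct 5 within CX3CL1-ct. This pattern was written down after the values were seen, and 16.6% of all genes tested have it. Against the median of the other 5 CX3CL1-ct libraries, CX3CL1-ct 5 held 3.42 times as much Dlk1, 2.50 times as much Peg3, 1.93 times as much Mest and 1.80 times as much Ndn. The ratio was 1.45 to 1.50 for Grb10, Rian, Plagl1 and Meg3, but 0.947 for Cdkn1c and 0.715 for H19.

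Markers of deep forebrain had the same low and high libraries. The 13 hypothalamic and pituitary genes summed to 2.02, 16.8 and 10.01 FPKM in WT 1 to 3, to 3.26, 22.7 and 18.98 in CAMK 1 to 3, to 19.1 in CX3CL1-ct 5 and to no more than 4.70 in the other 5 CX3CL1-ct libraries. Of these, 8 were at 0 in WT 1 and 10 in CAMK 1, including Avp and Oxt, the hypothalamic neuropeptides, in both. In CX3CL1-ct 5, 3 were at 0 (Cga, Gh and Prl, pituitary hormone genes), and in the other 5 libraries of its group 6 to 8. WT 2 had 2 at 0 (Hcrt and Pmch), WT 3 had 3 (Oxt among them), CAMK 2 had 3 and CAMK 3 had 2. The 10 thalamic genes summed to 193 FPKM in CX3CL1-ct 5 and to at most 125 in the rest of that group, with Gbx2 at 0 in WT 1 and CAMK 1. The 12 hippocampal neuron genes ran the other way, highest in WT 1 (467 FPKM) within WT, in CAMK 1 (405) within CAMK, and lowest in CX3CL1-ct 5 (145.5). Xist was also lowest in WT 1 and CAMK 1 and highest in CX3CL1-ct 5 within its groups, so sex-linked and regional RNA moved together with these genes and cannot be told apart here. Their part in the common order of the 7 genes was not tested.

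**Figure D4:**
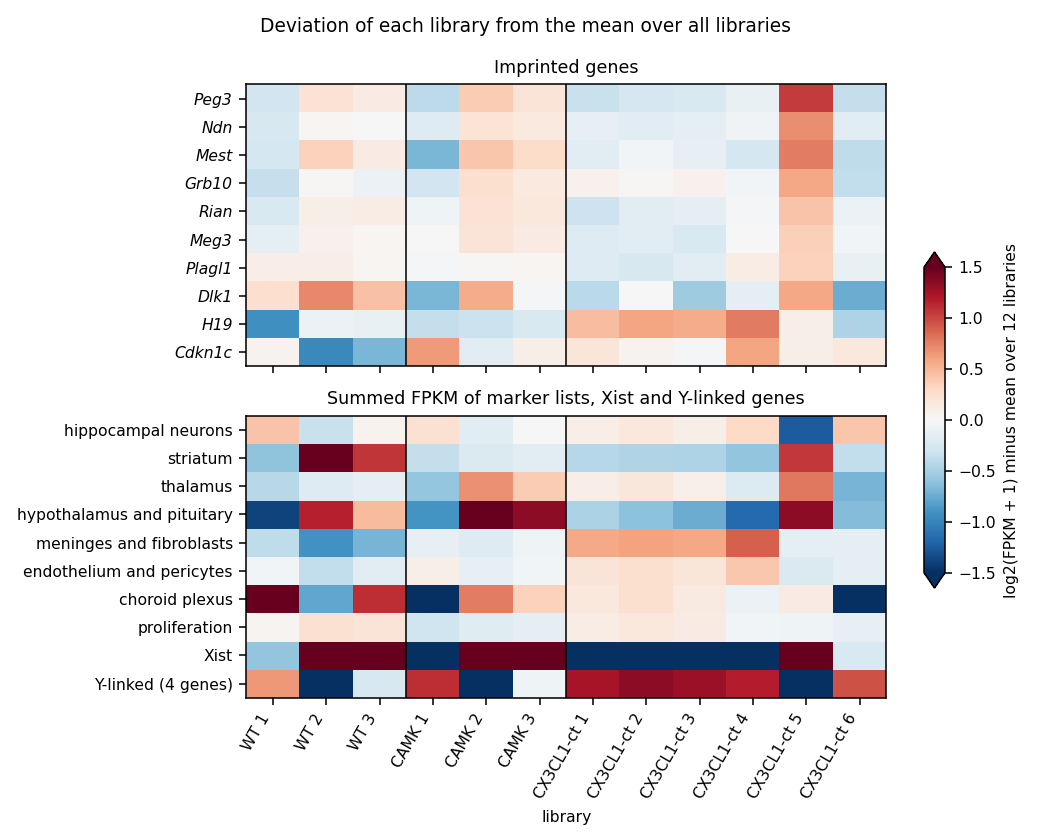
Deviation of each library from the mean over 12 libraries, in log2(FPKM + 1) (color scale, red above and blue below, clipped at 1.5), for the 10 genes (upper block) and for summed marker lists, Xist and 4 Y-linked genes (lower block); columns are libraries and black lines divide the groups. Peg3, Ndn, Mest and Grb10 are red in CX3CL1-ct 5, where the summed hippocampal markers (145.5 FPKM) are blue and Xist (96.3 FPKM) is red, and H19 and the meningeal sum are red in CX3CL1-ct 1 to 4.

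Likeness over the 12 libraries was measured as Pearson's r of log2(FPKM + 1) and is given as a description, since the libraries share groups and dissections. For Peg3 the closest genes were Impact (0.990), itself paternally expressed, Dzank1 (0.989) and Gprasp2 (0.988). Ndn was closest to Dach2 (0.986), Usp29 (0.982), the neighbour of Peg3 on the same control region, and Gprasp1 (0.982). Mest was closest to Zic4 (0.984), Gabrg1 (0.981) and Kcnip1 (0.971). Imprinted genes thus stood among the 3 closest for Peg3, Ndn and Meg3.

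After Rian, Meg3 was closest to Gpr165 and Unc13c (both 0.949), and Rian to Gpr165 (0.987), Rgs17 (0.967) and Tln2 (0.957). Grb10 was closest to Gjd2 (0.968), Cdkn1a (0.961), which encodes the related cell cycle inhibitor p21, and Inpp4b (0.954). Plagl1 went with Lgi3 (0.961), AI464131 (0.948) and Cpe (0.934), and Dlk1 with Lrrc23 (0.945), Slc14a1 (0.944) and Cfap44 (0.942). For Cdkn1c these were Adprh (0.980), Os9 (0.958) and B9d2 (0.952). H19 had the loosest match, with Itga1 (0.917), Zkscan3 (0.894) and Afap1l2 (0.881), and none of its 3 closest genes was imprinted. Among the 10 genes themselves, the highest values were 0.974 for Peg3 with Ndn, the 0.952 of Meg3 with Rian, 0.927 for Peg3 with Rian and 0.922 for Peg3 with Mest.

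A wider list of 48 other imprinted genes had 46 in the table, of which 40 passed the filter. Rtl1, Phlda2, Slc22a18, Kcnq1, Ascl2 and Klf14 were below it. As with the 10 genes, 0 of 40 were called in each comparison by limma, beside 0.0606%, 0.454% and 0.358% of all genes. With shares this low, 0 of 40 is no result about them. At an unadjusted p under 0.05 there were 2 for CX3CL1-ct against CAMK, 4 against WT, and 2 between the controls. The difference was positive for 19, 19 and 20 of 40, with medians of -0.02, -0.01 and -0.01. Over all genes tested it was positive for 10432, 10350 and 8340 of 16503.

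The 2 with the smallest p in each comparison were Mcts2 and Commd1, Igf2 and Slc38a4, and Peg13 and Mcts2. Commd1, which in mouse is maternally favored in brain, was at 8.22, 7.96 and 9.88 FPKM on average in WT, CAMK and CX3CL1-ct (0.28 against CAMK, limma adjusted p = 0.725). Mcts2, a paternally expressed retrogene, was at 15.3, 13.1 and 15.6 FPKM (0.24 for CX3CL1-ct against CAMK, limma adjusted p = 0.725, and -0.21 for CAMK against WT, 0.387), and Slc38a4, an amino acid transporter, at 0.748, 1.15 and 1.50 (0.51 against WT, 0.176). Peg13, a paternally expressed non-coding RNA, was at 45.4 ± 1.74 FPKM in WT (SD, n = 3) and 56.8 ± 0.768 in CAMK (n = 3), with no overlap. Its difference was 0.32 (SE 0.09, limma adjusted p = 0.180). Treating libraries of equal number as blocks gave a limma adjusted p of 0.0232. The labels do not state such a pairing, which was inferred from these same values. That fit also blocked CX3CL1-ct 1 to 3, which were not taken as paired, so its p-value rests on an assumed design.

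Paternally and maternally expressed genes of the wider list were both highest in CX3CL1-ct 5 within its group more often than all genes tested. The list itself holds more paternally than maternally expressed genes, and a difference by allele was not tested. CX3CL1-ct 5 was the highest of its group for 18 of 24 paternally and 7 of 15 maternally expressed genes, against 4924 of 16503 genes tested (29.8%). The largest ratios, named after their values were seen, included Nap1l5, at 147 FPKM against no more than 39.5 in the other 5 libraries, Peg10 (22.0 against 5.30), Zdbf2 (18.0 against 4.58) and Magel2 (7.19 against 2.39). Magel2, like Ndn, belongs to the Prader-Willi region and is known for its high level in the hypothalamus. The largest ratio of FPKM + 1 was that of the maternally expressed Calcr, the calcitonin receptor, at 3.44 FPKM against at most 0.203. The maternally expressed Asb4 was at 2.77 FPKM against at most 0.434.

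**Figure D5:**
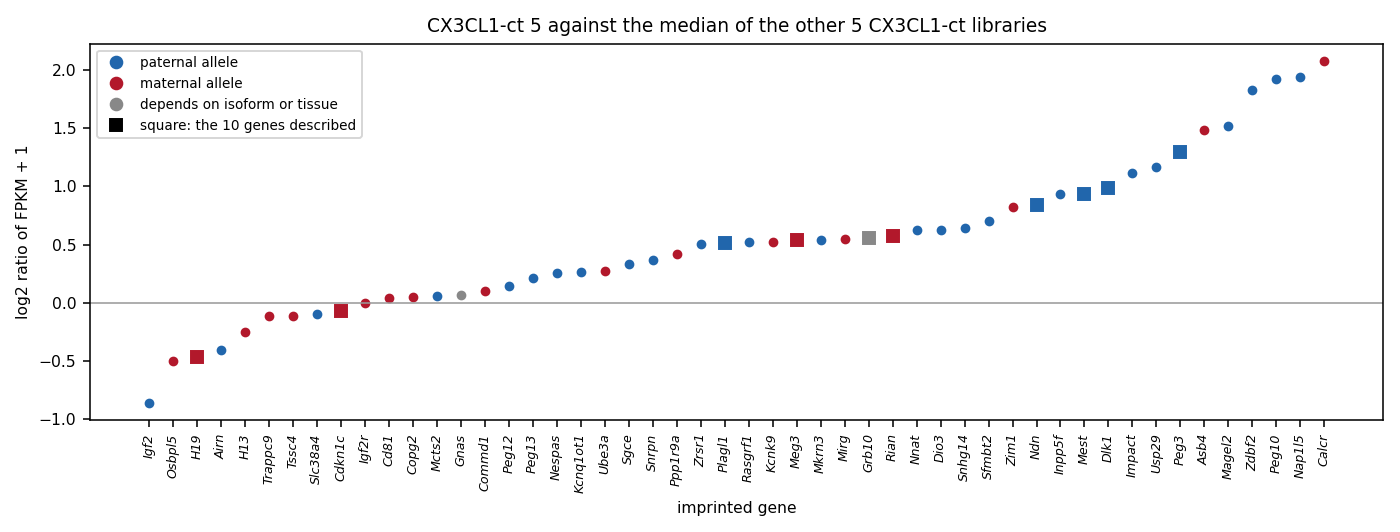
Log2 ratio of FPKM + 1 in CX3CL1-ct 5 to the median of the other 5 CX3CL1-ct libraries (vertical axis) for the 10 genes (squares) and 40 other imprinted genes (circles), sorted by ratio and colored by the parental allele expressed. Squares of Peg3, Mest and Ndn lie far to the right, and H19 lies below 0. Within the group, 18 of 24 other paternally and 7 of 15 other maternally expressed genes are highest in this library.

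The RNA of partner genes, whose proteins act with products of the 10 genes, was examined too, and no protein was measured. Of 16 partner genes, all in the table and all tested, 0 were called by limma in each comparison. The shares of all genes called were 0.0606%, 0.454% and 0.358%, so 0 of 16 is no result about them. An unadjusted p under 0.05 was found for 3, 3 and 5 in the order given above. The difference was positive for 12 of 16 in CX3CL1-ct against CAMK (median 0.11), 9 of 16 against WT (0.02) and 2 of 16 for CAMK against WT (-0.12). Over all genes tested it was positive for 10432, 10350 and 8340 of 16503 in that order. The groups did not overlap for 1 of 16 in CX3CL1-ct against CAMK (Cdk2), beside 3.30% of all genes, and for 2 of 16 against WT (Igf1r and Irs2), beside 6.04%. For CAMK against WT they did not overlap for 7 (Cdk4, Ccnd2, Igf1r, Ccnd1, Cdk2, Traf2 and E2f1), beside 18.0% of all genes.

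Cdk4, a kinase that drives the entry into S phase, was at 46.1, 38.4 and 44.7 FPKM on average in WT, CAMK and CX3CL1-ct. It differed by -0.26 for CAMK against WT (limma adjusted p = 0.255) and by 0.21 for CX3CL1-ct against CAMK (0.725). Its regulator Ccnd1 was at 11.5, 9.80 and 10.4 FPKM (-0.21 for CAMK against WT, limma adjusted p = 0.233). Traf2, with which PEG3 protein associates in TNF signalling, was at 3.37, 2.56 and 3.30 (-0.30 for CAMK against WT, 0.252). The 14 proliferation genes of a separate list also summed to less in every CAMK library (75.3 to 84.5 FPKM) than in any WT library (95.3 to 109), and to 84.7 to 103 in CX3CL1-ct.

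Igf1r, the receptor that IGF2 activates and GRB10 binds, was at 10.9, 12.9 and 12.9 FPKM, 0.22 above WT in CX3CL1-ct (limma adjusted p = 0.227) and 0.23 above WT in CAMK (0.281). Irs2, the docking protein below that receptor, was at 12.6, 11.1 and 10.9 FPKM (-0.20 for CX3CL1-ct against WT, limma adjusted p = 0.262). CX3CL1-ct 5, which held the most Peg3, Ndn and Mest, was the highest of its group for 0 of the 16 partner genes.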

How the data were processed

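The deposited table holds FPKM values that the authors made for 29454 genes in 12 libraries. The submitters' processing notes name TopHat, Bowtie, Cufflinks, Cuffdiff and genome build mm10, without versions. The annotation, the scaling between libraries and the use of strand in counting are not given in the sources used here. The library kit was stranded, per the labels. FPKM summed to 552481 to 659362 per library, 15318 to 15861 genes reached 1 FPKM, and small RNA genes held 42.1% to 46.6% of the sum in CX3CL1-ct and 48.1% to 52.3% in WT and CAMK, without overlap. This difference in composition can shift every FPKM of CX3CL1-ct against the others. With equal sums of all other genes, H19 exceeded CAMK by 0.62 and WT by 0.66 on the log2 scale, and 0 of the 10 genes were called. The table holds no counts, so counting error was not computed.

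Values were used as deposited, as log2(FPKM + 1), on which folds of low genes come out smaller than on the linear scale. Genes with at least 1 FPKM in at least 3 of 12 libraries were kept (16503). limma 3.58.1 (R 4.3.3) fitted 3 group means over the 12 libraries (eBayes, trend = TRUE). P-values are two-sided, with Benjamini-Hochberg adjustment across the 16503 genes and 0.05 as threshold. The steps were tested on simulated data. Tables and figures came from Python 3.11.15 (pandas 2.3.3, numpy 2.4.6, matplotlib 3.10.9). Positions come from GENCODE M21 (mm10), which holds 29258 of the gene IDs.

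The 10 genes and all lists were chosen with earlier results of these data known. The text names the 10 genes, other imprinted and partner genes past the threshold or with the 2 smallest p per list and comparison, Cx3cl1, and the 3 genes of highest Pearson correlation with each of the 10, with a mean of at least 2 FPKM and without predicted genes, small RNA genes and pseudogenes. Genes named beyond this rule are marked or belong to a count. Alternatives changed the pseudocount, filter, scaling, variance prior, the libraries fitted, repeated symbols and the replicate block.

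Same-numbered CAMK and WT libraries deviated together from their group means (r over genes 0.236, 0.163 and 0.100), which was taken as pairing, and they were also alike in Xist. For CX3CL1-ct with CAMK the values were 0.110, -0.130 and -0.0912, and with WT 0.114, -0.0622 and 0.0106, which was not. The labels state no pairing, and the 0.100 of CAMK 3 with WT 3 was below the 0.110 and 0.114 of CX3CL1-ct 1. The pairing of CAMK with WT is therefore an assumption.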

Additional observations from a re-analysis of the deposited data

Results flagged for a closer look

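In groups of 6 libraries, a value was marked where its gap to the nearest library took up more than 0.625 of the group's range (Dixon's 95% critical value), which chance alone gives for about 1 group in 20. Of 21 genes examined in CX3CL1-ct, 7 were marked, and 6 of these are among the 10 genes described. The share marked over all genes tested was not computed. CX3CL1-ct 5 was the highest of its group for 29.8% of all genes tested, so the count is no result about the 10 genes. Because the genes share libraries, the 7 are not independent.

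CX3CL1-ct 5 was high for 5 of them. Meg3 was at 475 FPKM there (315 to 367 in the other 5 libraries), Peg3 at 85.4 (31.8 to 37.6), Ndn at 155 (84.4 to 92.0), Mest at 104 (46.3 to 58.9) and Rian at 1110 (663 to 814). The same library was low for the partner gene Cdk4, at 37.6 FPKM (45.5 to 46.9 in the others). Cdkn1c, the p57 gene, was marked for CX3CL1-ct 4, at 15.7 FPKM (9.93 to 11.6 in the others), the library with the highest meningeal sum of its group, 153 FPKM. CX3CL1-ct 5 was also the library of its group with the most Xist, 96.3 FPKM. The part of other tissues and of sex in these values was not tested.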

How the results depend on the processing

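Under the alternatives run, 0 of the 10 genes passed the threshold except with the replicate number as a block, where 1 did for CX3CL1-ct against WT (H19, limma adjusted p = 0.0333). In that fit the libraries numbered 4 to 6 stand alone with their numbers and add nothing to the differences. The block also gave calls among the other imprinted genes: 2 for CX3CL1-ct against CAMK (Igf2, Zim1), 3 for CX3CL1-ct against WT (Igf2, Peg13, Zim1) and 1 for CAMK against WT (Peg13). Leaving out 1 library gave 0 to 1 of the other imprinted genes for CX3CL1-ct against WT (Igf2, without CX3CL1-ct 5).

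Over all genes the block gave 171, 540 and 490 calls in place of 10, 75 and 59. For CX3CL1-ct against WT the count was 144 without a filter, 30 with at least 5 FPKM, 38 with only these groups, 28 with CX3CL1-ct 1 to 3 averaged (chosen after seeing the data) and 13 to 158 without 1 library. For CAMK against WT it was 123 without a filter, 30 with at least 5 FPKM and 12 to 43 without 1 library. The counts thus changed with the libraries fitted. Leaving out 1 library also makes its group smaller, and for CAMK against WT every such fit gave fewer than the 59 calls. The part of a particular library cannot be told apart from that of group size here, and the causes were not tested.

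Of 63 differences of single genes, 22 changed sign in some alternative, and 21 of these were at most 0.11 in size. With CX3CL1-ct 1 to 3 averaged, the difference from CAMK became 0.016 for Peg3, 0.036 for Plagl1, 0.032 for Ndn and 0.040 for Cdkn1c, and that from WT 0.039 for Meg3, 0.059 for Peg3 and 0.039 for Rian. With the block, it became -0.069 for Ndn, 0.053 for Traf2 and 0.0065 for Cdk4 against WT, and 0.019 for Igf1r and -0.14 for Cx3cl1 against CAMK. With median-ratio scaling and with equal sums, Grb10 against CAMK was -0.022 and -0.0041, Mcts2 against WT -0.019 and -0.018, and Cx3cl1 against CAMK -0.035 and -0.017.

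Leaving out 1 library, CX3CL1-ct against CAMK ranged from -0.33 to 0.058 for Peg3, -0.18 to 0.030 for Ndn, -0.38 to 0.17 for Mest, -0.19 to 0.21 for Cdkn1c, -0.47 to 0.15 for Dlk1, -0.14 to 0.12 for Grb10, -0.069 to 0.045 for Igf1r, -0.042 to 0.013 for Irs2 and -0.060 to 0.068 for Cx3cl1. Against WT it ranged from -0.12 to 0.0032 for Meg3, -0.27 to 0.041 for Peg3, -0.056 to 0.13 for Ndn, -0.27 to 0.036 for Mest, -0.15 to 0.021 for Rian, -0.044 to 0.14 for Mcts2, -0.058 to 0.018 for Traf2 and -0.063 to 1.2e-04 for Cdk4. CAMK against WT ranged from -0.21 to 0.21 for H19, -0.12 to 0.27 for Peg3, -0.27 to 0.28 for Mest and -0.14 to 0.048 for Commd1.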

Other observations

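Igf1, the other ligand of the receptor that GRB10 binds, was chosen after its values were seen. It was at 12.3, 13.5 and 13.2 FPKM in CX3CL1-ct 1 to 3 and at 6.66, 5.79 and 4.72 in CX3CL1-ct 4 to 6. In WT it was at 6.56, 6.21 and 7.29 FPKM, and in CAMK at 4.27, 7.38 and 5.93.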
